A study of Mus musculus with 18 samples.

Results

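Lithocholic acid (LCA) is a secondary bile acid that gut bacteria make from the liver's bile acids. This account concerns genes whose count at the middle LCA dose departed from both ends of the dose series, in mouse CD8+ T cells. For each gene, the value at 10 µM LCA was set against the mean of the values at 0 and 50 µM, separately in each guide, and both guides were averaged with equal weight. All 18 RNA sequencing libraries of the series entered, 6 at each dose. The measure depended on the labels alone and not on any measured value.

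The cells were naive CD8+ T cells from mice, given a CRISPR ribonucleoprotein, activated with antibodies to CD3 and CD28, and then kept overnight with or without LCA. KO cells had received a guide kit against Nur77, the orphan nuclear receptor encoded by Nr4a1, and WT cells a scrambled guide. The 6 groups, each of 3 libraries, were KO without LCA, KO with 10 µM, KO with 50 µM, WT without LCA, WT with 10 µM and WT with 50 µM. In the text, control means no LCA, LCA10 means 10 µM and LCA50 means 50 µM. All groups shared the ribonucleoprotein step and the CD3 and CD28 stimulation. Nothing in the labels describes a clonal line. The share of edited alleles, the strain, age and number of mice, and whether the 3 libraries of a group came from separate animals or cultures are not given in the sources used here. P-values therefore rest on library-to-library spread within a group, and that spread could be technical.

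Interferons are secreted proteins that warn cells of infection. Type I interferons bind the receptor pair Ifnar1 and Ifnar2, whose kinases Jak1 and Tyk2 phosphorylate STAT factors, among them Stat2. These join Irf9 to form a complex that binds the interferon-stimulated response element (ISRE) in the promoters of target genes. The targets include sensors of foreign nucleic acid, proteins that block viral RNA or protein synthesis, and brakes that shut the pathway down. Interferon gamma, made by activated CD8+ T cells themselves, acts on an overlapping set of genes through a receptor of its own. In T cells the pathway shapes activation, survival and the acquisition of effector functions.

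Libraries held 4113713 to 5945518 counts, and 11651 of 24537 listed genes passed the filter on low counts. Cd8a ranged from 493 to 661 CPM, counts scaled to a common library size, over the 18 libraries and Cd3e from 367 to 481 CPM, while Cd4 reached at most 1.29 CPM. The summed CPM of 18 myeloid markers was 104 to 177 in control, 107 to 160 in LCA10 and 96.7 to 201 in LCA50 libraries. The summed CPM of 1470 olfactory, vomeronasal and trace amine receptor genes, a measure of reads outside expressed genes, was 50.4 to 113 in control, 64.8 to 89.6 in LCA10 and 47.2 to 223 in LCA50 libraries. The LCA10 libraries lay inside the control range of both these sums. The summed CPM of 12 CD8 T cell markers was 5440 to 5770 in control, 5020 to 5760 in LCA10 and 4440 to 5470 in LCA50 libraries, so it reached below control at both doses. At LCA10 the sums of CD4 and regulatory T cell, B cell and NK cell markers also reached below the control range, to 685, 6.89 and 7.53 CPM, where the lowest control values were 726, 7.38 and 8.67 CPM. The part of these marker shifts in the results was not tested. Nr4a1, the targeted gene, held 12, 7.73 and 12 CPM in KO control, 10.7, 9.92 and 9.08 CPM in KO LCA10, and 15.7, 7.53 and 7.07 CPM in KO LCA50 libraries. In WT cells it held 11.4, 11.6 and 5.87 CPM in control, 8.31, 16.5 and 8.40 CPM in LCA10, and 18, 14.9 and 7.90 CPM in LCA50 libraries. The Nr4a1 counts of KO and WT libraries overlapped at each dose, and gene counts cannot show a small edit, so they do not check the KO label. Its middle dose value was -0.05 ± 0.20 on the log2 scale (SE, edgeR adjusted p = 0.99).

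At the middle dose 89 genes were called higher than the mean of both ends and 6 lower (edgeR quasi-likelihood test, Benjamini-Hochberg adjusted p under 0.05), which is 0.764% and 0.0515% of the genes tested. Of the 89, 29 were in a list of 40 interferon response genes. That list also held 12 of the 30 genes called higher within KO cells and 10 of the 37 called higher within WT cells. The log2 values of the 89 ran from 0.167 to 1.89 with a median of 0.445, against a median of 0.00313 over all genes tested. Of the 89, 86 had a higher fitted mean at LCA10 than at either end, and in Mndal, Irgm2 and Iigp1 the LCA10 mean lay between the ends. Of the 6 called lower, 5 had a lower fitted mean at LCA10 than at either end, and in Hic1 it lay between them. The count of genes called higher was 54 without KO LCA10 replicate 2 and 57 without WT LCA10 replicate 2. The libraries were numbered in dose order, LCA10 being libraries 7 to 12 of the series, so any effect of handling in that order cannot be told apart from the dose.

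A middle dose value above 0 also arises where a gene merely falls at 50 µM, so a stricter test asked for LCA10 to exceed control and LCA50 in separate comparisons. The larger of both p-values was kept and adjusted over all genes. By that test 15 genes peaked at 10 µM, 0.129% of the genes tested, and no gene dipped. The count of peak genes moved with the method, being 31 by DESeq2, 38 without the filter on low counts and 9 with the receptor background as a covariate. The 15 peak genes of the main test were Mx2, Oasl1, Ddx60, Rtp4, Isg15, Xaf1, Parp12, Phf11c, Slfn8, Ifih1, Ddx58, Herc6, Trim30a, Stat2 and Adar. Below both ends at an unadjusted p under 0.05 in each comparison were 55 genes by edgeR and 57 by DESeq2, of which DESeq2 also called 0. At LCA50, 12 of the 15 peak genes were not called different from control, and Ifih1, Trim30a and Stat2 were called lower, by 0.51, 0.41 and 0.19 on the log2 scale. In 9 of the 15, each of the 6 LCA10 libraries lay above all 12 other libraries, a pattern that 15 genes (0.129%) showed among all tested. Within KO cells 14 of the 15 had their 3 LCA10 libraries above the other 6, where 1.34% of all genes did, and within WT cells 13 did, where 1.39% of all genes did. These counts describe the same libraries that chose the 15 genes and are no further support for them. The count of peak genes fell to 5 without WT control replicate 3, 6 without WT control replicate 1 or KO LCA10 replicate 2, 7 without KO control replicate 1 or KO LCA10 replicate 1, and 8 without WT LCA10 replicate 2, and was 26 without KO LCA50 replicate 1. The middle dose calls of the 15 genes were kept under each of these omissions.

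**Figure D1:**
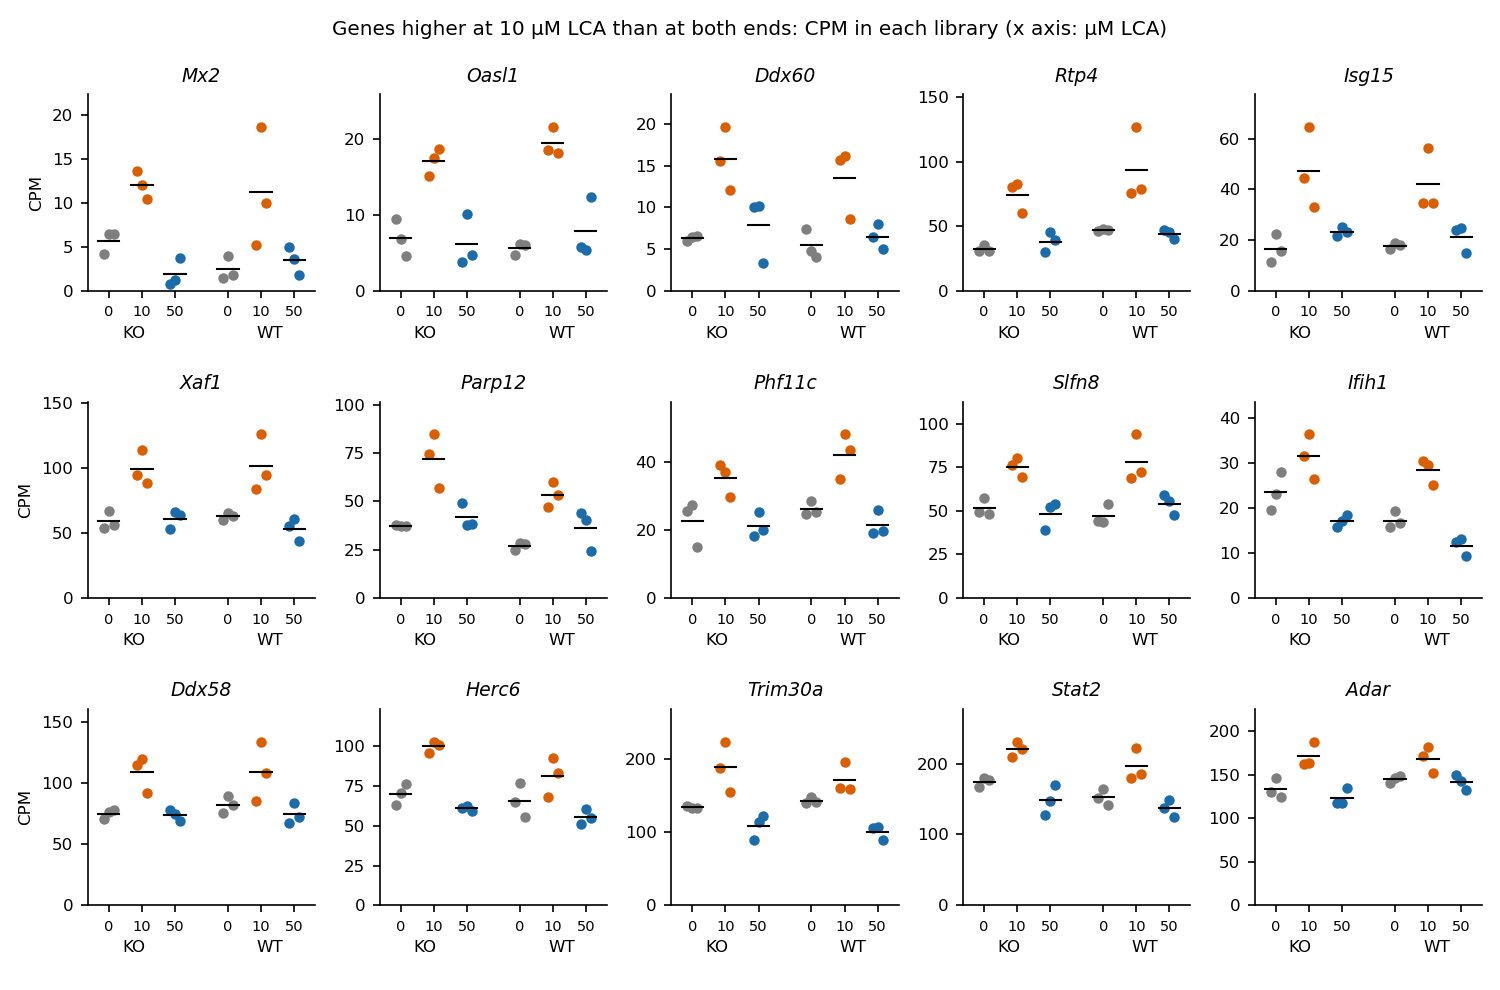
CPM of the 15 peak genes in each of 18 libraries (points, 3 per group; lines, group means) against LCA dose in µM, with KO cells left and WT cells right in each panel. In most panels the 10 µM points (orange) stand above the 0 µM (grey) and 50 µM (blue) points of the same guide; for Rtp4 the 6 LCA10 libraries held 60.7 to 127 CPM and all others at most 47.7 CPM.

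The separate comparisons behind the contrast share the LCA10 libraries, so their values are given side by side as a description of its shape. Of the 89 genes called higher, 43 were also called higher in LCA10 than in control, where 1.01% of all genes were, and none was called lower, where 0.807% of all genes were. Of the same 89, 84 were called higher in LCA10 than in LCA50, where 3.47% of all genes were, and none was called lower, where 2.26% were. In LCA50 against control, 39 of the 89 were called lower and 5 higher, where 8.66% and 7.86% of all genes were, and 45 were not called. Hence some of the 89 genes were above both ends, and others were near control at 10 µM and low at 50 µM. In Pml, the scaffold of nuclear bodies, LCA10 was 0.19 above control on the log2 scale, which did not pass (adjusted p = 0.19). LCA10 was 0.75 above LCA50 (adjusted p = 3.59e-08). The LCA10 libraries of Pml lay above control in KO cells and overlapped control in WT cells.

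**Figure D2:**
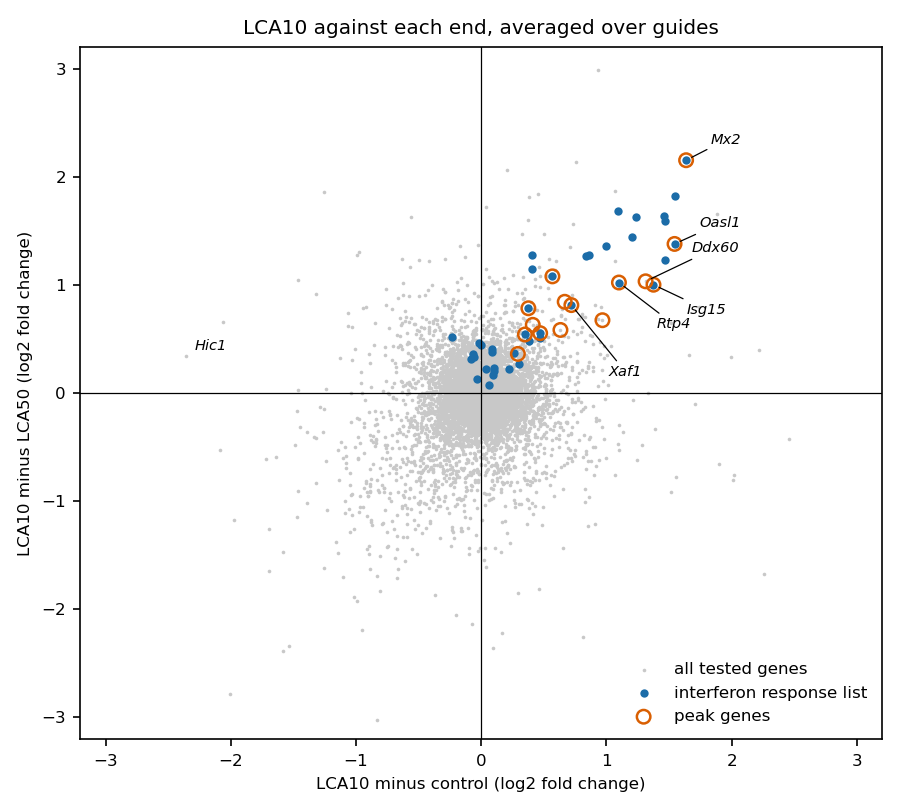
Log2 fold change of LCA10 against control (x axis) and of LCA10 against LCA50 (y axis), averaged over guides, for all tested genes (grey), the interferon response list (blue) and the 15 peak genes (orange rings). Genes in the upper right are above both ends, with Mx2 farthest among the rings at 1.64 and 2.15; 3 genes lie outside the axis limits of 3.2, and both axes share the LCA10 libraries.

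A list of 40 interferon response genes, chosen with earlier results of these data known, held 29 of the 89 genes called higher. It held 9 of the 15 peak genes, and none of its members was called lower. Over all genes tested, 0.764% were called higher and 0.129% peaked. The list's median middle dose value was 0.50 on the log2 scale, against 0.003 over all genes tested. All 40 members had a value above 0 and 33 had their highest fitted mean at LCA10. Of 11651 genes tested, 6004 and 2856 did. Against control, 19 of the 40 were called higher at LCA10, where 1.01% of all genes were. Against LCA50, 36 of the 40 were called higher at LCA10, where 3.47% of all genes were. In LCA50 against control, 14 were called lower, where 8.66% of all genes were. The mean log2 CPM of the list was 6.34 to 6.54 in control, 6.66 to 7.28 in LCA10 and 5.81 to 6.33 in LCA50 libraries. By this mean the doses did not overlap, though control and LCA50 nearly met. The highest mean log2 CPM belonged to WT LCA10 replicate 2 and the lowest to KO LCA50 replicate 1. The summed CPM of the list was 11640 to 12460 in control, 11590 to 13450 in LCA10 and 9220 to 11230 in LCA50 libraries. By that sum WT LCA10 replicate 1 lay below all control libraries, so LCA10 and control overlapped. With a further 9 lists, drawn up by role after the values were seen, 61 of the 89 genes (68.5%) were in an interferon list. Of the 15 peak genes, 14 are in one of these lists, all but Phf11c. The counts by role given below come from the 9 lists, so they describe genes chosen with the values known.

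**Figure D3:**
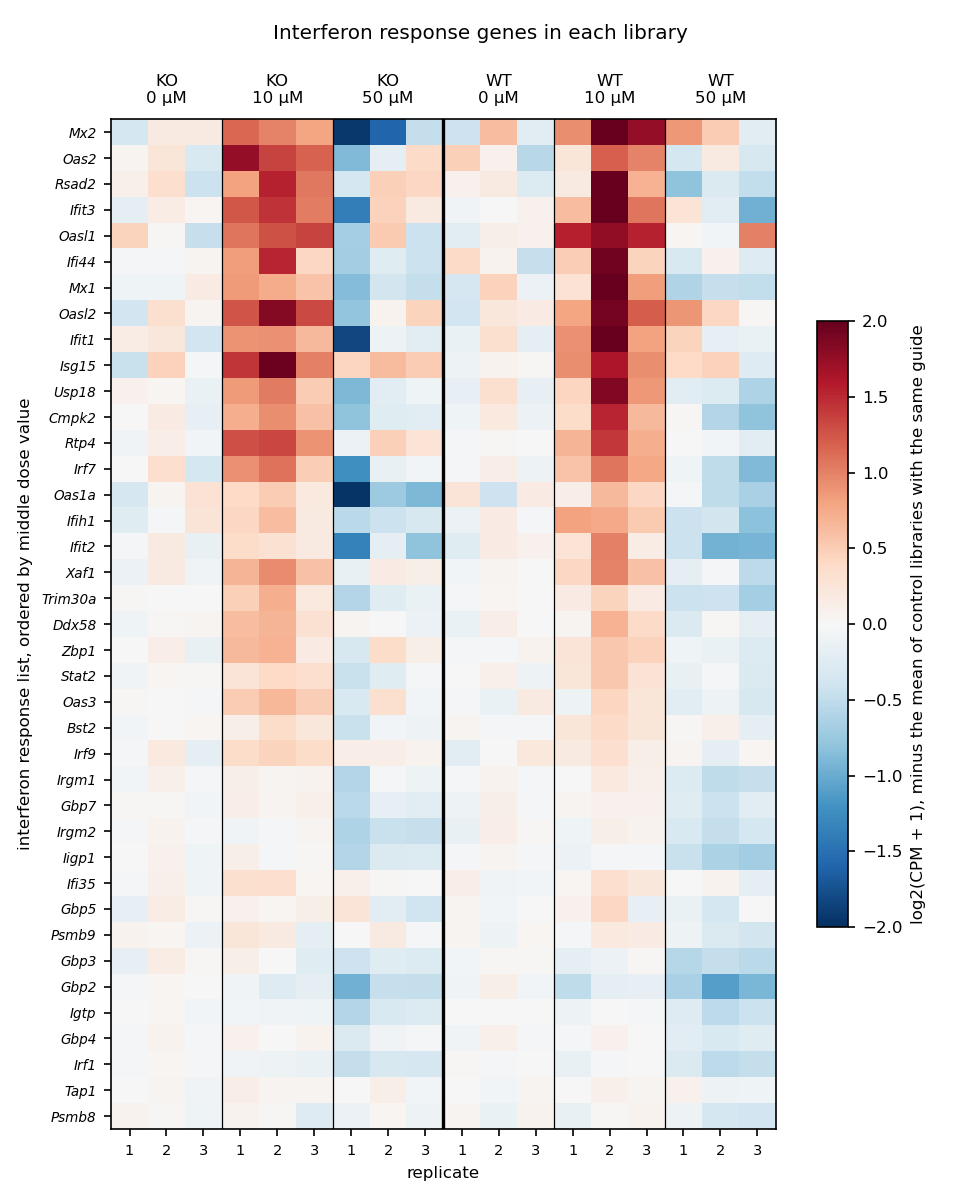
log2(CPM + 1) of 39 of the 40 interferon response genes in each library, minus the mean of the control libraries of the same guide (colour, cut at -2 and 2), with genes ordered by middle dose value and KO libraries left of WT libraries. The LCA10 columns are red in the upper rows in both guides, while the lower rows are near control at 10 µM and blue at 50 µM; WT LCA10 replicate 2 has the deepest red and KO LCA50 replicate 1 the deepest blue.

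The interferons themselves were scarcely counted. Of 21 interferon genes in the table, only Ifng passed the filter. Ifnb1, the gene of interferon beta, had 27 counts over all 18 libraries and at most 5 in 1 library, and Ifna4 had 14 counts in all. Ifng, the gene of interferon gamma, held 0, 3.39 and 0.845 CPM in KO control, 5.14, 5.91 and 7.38 CPM in KO LCA10, and 21, 8.72 and 5.50 CPM in KO LCA50 libraries. In WT cells it held 3.92, 2.40 and 3.24 CPM in control, 6.38, 19.4 and 5.47 CPM in LCA10, and 11.6, 15.3 and 14.5 CPM in LCA50 libraries. Every library with LCA thus held more Ifng than any control library. The middle dose value of Ifng was 0.62 ± 0.39 and did not pass (SE, edgeR adjusted p = 0.82). LCA50 was above control by 2.56 (adjusted p = 0.00205). LCA10 against control, at 1.90, was not called, nor was LCA10 against LCA50, at -0.65. WT LCA10 replicate 2, the library with the highest interferon response, also had the most Ifng among the LCA10 libraries. KO LCA50 replicate 1, with the lowest mean log2 CPM of the interferon response list, had the most Ifng of all 18 libraries. The part of Ifng in the interferon values was not tested.

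Of the 8 tested receptor and kinase genes, none was called higher or lower in the middle dose contrast. Over all genes tested, 0.764% and 0.0515% were. At LCA10, 1 was called lower than in control and 1 higher than in LCA50, where 0.807% and 3.47% of all genes were. In LCA50 against control, 2 were called lower and 1 higher, where 8.66% and 7.86% of all genes were. Ifngr1, a chain of the interferon gamma receptor, had medians of 765, 617 and 454 CPM in control, LCA10 and LCA50 libraries. For Ifngr2, the other chain, they were 50.1, 58.8 and 66.4 CPM. Ifnar1, a chain of the type I receptor, held a median of 186 CPM (171 to 196) in control, 196 CPM (193 to 209) in LCA10 and 179 CPM (169 to 190) in LCA50 libraries. Its middle dose value of 0.13 ± 0.05 did not pass (adjusted p = 0.36), nor did that of the other chain, Ifnar2, at 0.10 ± 0.05 (adjusted p = 0.69). The doses of Ifnar1 lay close together, with LCA10 above LCA50 in each library and overlapping control.

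Of 11 STAT and IRF factors, 3 were called higher: Stat2, Irf7 and Irf9. Over all genes tested, 0.764% were called higher. The median of the 11 was 0.12 on the log2 scale, and 7 of them were above 0. Stat2, the subunit particular to type I and type III interferon signalling, held 167, 180 and 177 CPM in KO control, 209, 231 and 220 CPM in KO LCA10, and 128, 147 and 170 CPM in KO LCA50 libraries. In WT cells Stat2 held 152, 164 and 142 CPM in control, 180, 222 and 186 CPM in LCA10, and 138, 148 and 125 CPM in LCA50 libraries. Within each guide every LCA10 library of Stat2 was above every other. Stat2 was higher in LCA10 than in control by 0.35 and than in LCA50 by 0.54 on the log2 scale (adjusted p of the peak = 0.011).

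Irf7, which amplifies interferon production, held 48.6, 61.5 and 37.9 CPM in KO control, 92.5, 104 and 68.3 CPM in KO LCA10, and 20, 43.8 and 46.5 CPM in KO LCA50 libraries. In WT cells Irf7 held 54.1, 61.5 and 52.0 CPM in control, 83.1, 118 and 95.7 CPM in LCA10, and 52.6, 39.0 and 29.8 CPM in LCA50 libraries. The 6 LCA10 libraries did not overlap the other 12, and the middle dose value was 1.05 ± 0.17 (SE, edgeR adjusted p = 0.00556). Irf9, the DNA-binding partner of Stat2, had a smaller value of 0.28 ± 0.06 (adjusted p = 0.0179), lost without KO LCA10 replicate 1 or 2 or WT LCA10 replicate 2 (highest adjusted p = 0.148). Irf1, a factor driven mainly by interferon gamma, was near control at 10 µM and lower in LCA50 by 0.40 (adjusted p = 1.61e-07), and its middle dose value was 0.12 ± 0.04 (adjusted p = 0.35).

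Of 20 tested sensors of nucleic acid and their adaptors, 8 were called higher and 3 of these peaked. Over all genes tested, 0.764% and 0.129% did. Ifih1, the gene of MDA5, which binds long double-stranded RNA, held 19.6, 23 and 27.9 CPM in KO control, 31.5, 36.3 and 26.5 CPM in KO LCA10, and 15.7, 17 and 18.5 CPM in KO LCA50 libraries. In WT cells it held 15.7, 19.2 and 16.6 CPM in control, 30.5, 29.5 and 25 CPM in LCA10, and 12.4, 13.1 and 9.26 CPM in LCA50 libraries. KO LCA10 and KO control overlapped in 1 library, and the other doses did not overlap within a guide. Ifih1 was higher in LCA10 than in control by 0.57 and than in LCA50 by 1.08 (adjusted p of the peak = 0.0428).

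Ddx58, the gene of RIG-I, which binds short RNA with a 5′ triphosphate, held a median of 77.0 CPM (70.3 to 89.9) in control, 112 CPM (85.1 to 134) in LCA10 and 73.6 CPM (67.4 to 84.0) in LCA50 libraries. Its LCA10 libraries were all above those of LCA50, and overlapped control in WT LCA10 replicate 1. Dhx58, the third RNA helicase of this family, had a middle dose value of 0.75 ± 0.10 (adjusted p = 5.18e-05). Eif2ak2, the kinase PKR that stops translation on binding double-stranded RNA, had 0.51 ± 0.08, Zbp1, a sensor of Z-form nucleic acid, had 0.49 ± 0.09, and Trim25, a ubiquitin ligase that acts on RIG-I, had 0.44 ± 0.07, and all 3 were called. Adar, which edits adenosines in double-stranded RNA and so hides the cell's own RNA from these sensors, peaked with values of 0.29 over control and 0.36 over LCA50 (adjusted p of the peak = 0.0426). The cytosolic DNA sensing pair gave no call: Mb21d1 (cGAS) had 0.29 ± 0.11 (adjusted p = 0.42) and Tmem173 (STING) 0.08 ± 0.05 (adjusted p = 0.79).

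Antiviral effectors, a list drawn up after the values were seen, had 35 of 48 tested members called higher and none lower. Over all genes tested, 0.764% were called higher. The list's median was 0.50, and all 48 members were above 0, as were 6004 of 11651 genes tested. Isg15 (chr4:156199424-156200818, minus strand, GENCODE vM21 on GRCm38), a ubiquitin-like protein that is attached to other proteins, held 11.5, 22.4 and 15.6 CPM in KO control, 44.7, 64.6 and 32.9 CPM in KO LCA10, and 21.7, 25.2 and 23 CPM in KO LCA50 libraries. In WT cells it held 16.5, 18.8 and 18.2 CPM in control, 34.8, 56.5 and 34.8 CPM in LCA10, and 23.8, 24.9 and 14.7 CPM in LCA50 libraries. Every LCA10 library was above all 12 others, by 1.38 over control and 1.00 over LCA50 on the log2 scale (adjusted p of the peak = 0.0126). Herc6, the ligase that attaches Isg15 in mice, peaked with 0.41 over control and 0.63 over LCA50.

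Promoters of these genes often carry the ISRE, so its core, GAAA followed by any 2 bases and GAAA, was searched for on both strands from 250 bases before to 50 after each start site in RefSeq's promoter table (GRCm38.p6). This motif was chosen after the interferon genes had been seen. It was present in 7 of the 13 peak genes with a promoter in the table (53.8%), in 35 of the 72 genes called higher (48.6%), in 364 of 9307 tested genes (3.91%) and in 1131 of all 32851 windows (3.44%). No match was found in 5 genes called lower. AAAGGTCA, the element that Nur77 binds as a monomer, was in none of the 13 peak genes, in 1 of the 72 genes called higher (1.39%) and in 1.19% of tested genes. AP-1 (TGANTCA) was in 2 of the 13 peak genes (15.4%), in 16 of the 72 genes called higher (22.2%) and in 6.03% of tested genes, so its share too was above that of the tested genes. The E-box (CACGTG) was in none of the 13, in 2.78% of the 72 and in 11.9% of tested genes, and the ATF4 element TGATGNAA in none of the 13, in 4.17% of the 72 and in 2.75% of tested genes. No ISRE match in the genes called higher overlapped any of these 4 motifs. Matches are descriptions of sequence and not evidence of binding. The stretches around the match, printed to show the element in genes that peaked, are from 5 peak genes in which it lies before the start site. They read 5′ to 3′ on the strand of the gene, with capitals marking the matches, which begin with TTTC where the motif is on the opposite strand.
Isg15: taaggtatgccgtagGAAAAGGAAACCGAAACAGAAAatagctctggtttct
Ddx60: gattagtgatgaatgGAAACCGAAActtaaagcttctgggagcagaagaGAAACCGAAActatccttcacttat
Slfn8: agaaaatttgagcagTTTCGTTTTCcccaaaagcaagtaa
Trim30a: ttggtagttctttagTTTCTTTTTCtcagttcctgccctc
Stat2: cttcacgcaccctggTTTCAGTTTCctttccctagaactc
The Isg15 stretch is chr4:156200860-156200911 on the minus strand, and its 3 overlapping matches span bases -78 to -57 from the start site. The Ddx60 stretch, chr8:61928019-61928092 on the plus strand, holds the same 10 letters at both of its matches, between -53 and -10. The other stretches are chr11:83020834-83020873 (Slfn8, minus strand), chr7:104465205-104465244 (Trim30a, minus strand) and chr10:128270261-128270300 (Stat2, plus strand, -222 to -213).

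The Mx genes encode dynamin-like GTPases that trap viral particles. GENCODE vM21 lists Mx2 as a polymorphic pseudogene, and the strain of these mice is not given, so its counts do not show an intact protein. Mx2 (chr16:97535308-97560900, plus strand, GENCODE vM21 on GRCm38) held 4.15, 6.41 and 6.42 CPM in KO control, 13.6, 12 and 10.4 CPM in KO LCA10, and 0.715, 1.19 and 3.73 CPM in KO LCA50 libraries. In WT cells Mx2 held 1.45, 3.99 and 1.82 CPM in control, 5.22, 18.6 and 9.96 CPM in LCA10, and 4.94, 3.62 and 1.81 CPM in LCA50 libraries. The LCA10 libraries of each guide were above the other 6 of that guide, and Mx2 had the largest middle dose value of the called genes, 1.89 ± 0.26 (SE, edgeR adjusted p = 3.94e-05). Mx1 was more abundant, with a median of 20.9 CPM (12.8 to 24.8) in control, 35.4 CPM (20.5 to 89.2) in LCA10 and 11.7 CPM (10.5 to 17) in LCA50 libraries. Its value of 1.39 ± 0.25 passed (adjusted p = 0.0179) but not without KO LCA10 replicate 1 or 2 (adjusted p = 0.0674 and 0.0684). Mx1 and Mx2 lie side by side and are alike in sequence, so the split of reads between them is uncertain.

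The oligoadenylate synthetase family makes the messenger that activates RNase L. Oasl1 (chr5:114923240-114937915, plus strand), an enzymatically inactive member that in mice limits translation of Irf7, held 9.48, 6.79 and 4.56 CPM in KO control, 15.2, 17.5 and 18.7 CPM in KO LCA10, and 3.81, 10.1 and 4.71 CPM in KO LCA50 libraries. In WT cells Oasl1 held 4.75, 6.19 and 6.07 CPM in control, 18.6, 21.6 and 18.2 CPM in LCA10, and 5.79, 5.42 and 12.4 CPM in LCA50 libraries. All 6 LCA10 libraries were above the other 12, and LCA10 exceeded control by 1.54 and LCA50 by 1.38 on the log2 scale (adjusted p of the peak = 0.000913). Oasl2, its neighbour, had a middle dose value of 1.35 ± 0.20 (adjusted p = 0.00113), Oas2 of 1.68 ± 0.32 (adjusted p = 0.00203) and Oas3 of 0.43 ± 0.08 (adjusted p = 0.00296). Reads may be shared between these relatives.

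Rtp4 (chr16:23520291-23614222, plus strand), a Golgi chaperone of receptors that interferon induces, had the smallest p of the whole contrast. It held 30.6, 35.5 and 30.9 CPM in KO control, 80.2, 82.9 and 60.7 CPM in KO LCA10, and 29.8, 45.4 and 39.3 CPM in KO LCA50 libraries. In WT cells Rtp4 held 46.3, 47.7 and 47.3 CPM in control, 76.0, 127 and 78.9 CPM in LCA10, and 47.4, 45.2 and 40.0 CPM in LCA50 libraries. LCA50 and control overlapped in both guides while LCA10 stood apart, at 1.10 over control and 1.02 over LCA50 (adjusted p of the peak = 1.34e-05).

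Xaf1, an antagonist of the apoptosis inhibitor XIAP, behaved alike in both guides, with medians of 61.5 CPM (54.1 to 66.9) in control, 94.8 CPM (84.1 to 126) in LCA10 and 58.1 CPM (43.6 to 66.0) in LCA50 libraries. All LCA10 libraries of Xaf1 were above all others, and its peak had an adjusted p of 6.32e-05. Ddx60, a helicase linked to RNA sensing, had medians of 6.17 CPM (4.05 to 7.43) in control, 15.7 CPM (8.59 to 19.6) in LCA10 and 7.24 CPM (3.34 to 10.1) in LCA50 libraries. In Ddx60 all LCA10 libraries were above control, while WT LCA10 replicate 3 lay below KO LCA50 replicates 1 and 2. Parp12, an ADP-ribosyltransferase that restrains viral translation, had medians of 32.6 CPM (24.8 to 37.5) in control, 58.5 CPM (47.2 to 84.6) in LCA10 and 39.2 CPM (24.2 to 49.3) in LCA50 libraries, and overlapped between LCA10 and LCA50 only across guides. Slfn8, a member of the Schlafen family of lymphocyte growth regulators, had medians of 48.9 CPM (43.5 to 57.5) in control, 74.2 CPM (68.8 to 93.8) in LCA10 and 52.8 CPM (38.9 to 58.8) in LCA50 libraries, with no overlap of LCA10 and the rest.

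Trim30a, a ubiquitin ligase that in mice restrains NF-kB signalling, was at 133 to 147 CPM in control, 154 to 223 CPM in LCA10 and 88.7 to 122 CPM in LCA50 libraries. The 3 doses of Trim30a did not overlap, and it was both higher at 10 µM (0.38) and lower at 50 µM (-0.41) than in control. Phf11c, a PHD finger gene outside the interferon lists, was at 15 to 28.4 CPM in control, 29.7 to 48.0 CPM in LCA10 and 18.1 to 25.9 CPM in LCA50 libraries. Its symbol shares sequence with the readthrough Setdb2-phf11c, which was also called higher, so the counts of the pair are uncertain.

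The Ifit genes encode proteins that bind foreign RNA. Ifit3 held a median of 14.9 CPM (11.1 to 17.4) in control, 33.4 CPM (25.5 to 91.6) in LCA10 and 14.3 CPM (4.29 to 20) in LCA50 libraries. Ifit1 held a median of 32.6 CPM (26.5 to 42.6) in control, 62.7 CPM (53.5 to 165) in LCA10 and 29.2 CPM (9.53 to 41.4) in LCA50 libraries. In both, every LCA10 library was above the other 12, yet the spread was wide, WT LCA10 replicate 2 being far above its group. The middle dose values were 1.53 ± 0.29 for Ifit3 (adjusted p = 0.0241) and 1.32 ± 0.27 for Ifit1 (adjusted p = 0.0432), and leaving out 1 library ended the Ifit3 call in 8 of 18 cases and the Ifit1 call in 14 of 18 (highest adjusted p = 0.102 and 0.145). Rsad2, viperin, an enzyme that makes a chain-ending nucleotide, had 1.55 ± 0.33 and did not pass (adjusted p = 0.0534). Its genomic neighbour Cmpk2, a nucleotide kinase, had 1.07 ± 0.16 (adjusted p = 0.00203), with all 6 LCA10 libraries above the rest. Ifi44, a gene of the same response, had 1.43 ± 0.24 (adjusted p = 0.000494). Bst2, tetherin, which holds budding virus at the membrane, had 0.32 ± 0.06 (adjusted p = 0.000882), and Samhd1, which depletes nucleotides, 0.24 ± 0.05 (adjusted p = 0.00421).

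The p200 family of interferon-inducible DNA-binding proteins sits in a cluster on chromosome 1. Of its 9 tested members, 7 were called higher, where 0.764% of all genes were. Ifi204 had the largest value among the called members, with a median of 6.21 CPM (3.00 to 7.61) in control, 18.5 CPM (8.89 to 36.5) in LCA10 and 12.5 CPM (5.87 to 16.5) in LCA50 libraries. Its LCA10 libraries were above all control libraries and overlapped LCA50. Its middle dose value was 1.27 ± 0.18 (adjusted p = 4.02e-05), and it was also higher in LCA50 than in control, by 0.94 (adjusted p = 0.0044). Ifi203 had the other shape, 0.08 over control (adjusted p = 0.84) and 1.04 over LCA50 (adjusted p = 1.02e-07). Ifi208 had a middle dose value of 0.87 ± 0.12, Ifi213 of 0.89 ± 0.15 and Ifi209 of 0.54 ± 0.08. Mndal was close to control at 10 µM, with medians of 86.0, 82.6 and 55.4 CPM in control, LCA10 and LCA50 libraries, and its call (adjusted p = 0.0459) was lost in 13 of 18 cases of leaving out 1 library (highest adjusted p = 0.327). These genes are alike in sequence and their counts may share reads.

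The interferon-inducible GTPases, which attack the vacuoles of intracellular pathogens and respond mainly to interferon gamma, stood apart from the antiviral effectors. Of 19 tested, 6 were called higher, where 0.764% of all genes were, none of them as a peak, and the list's median was 0.19. None of the 19 was called higher in LCA10 than in control, where 1.01% of all genes were. In LCA10 against LCA50, 15 were called higher, where 3.47% of all genes were. In LCA50 against control, 14 were called lower, where 8.66% of all genes were. Iigp1 had medians of 523 CPM in control, 517 CPM in LCA10 and 369 CPM in LCA50 libraries, with LCA10 overlapping control and above LCA50 throughout. Its call (0.22 ± 0.05, adjusted p = 0.00674) was lost without KO LCA10 replicate 1 (adjusted p = 0.064). Irgm2 had the same shape (0.22 ± 0.05, adjusted p = 0.0241), and its call was lost in 8 of 18 cases of leaving out 1 library (highest adjusted p = 0.168). Gbp7 had 0.23 ± 0.05 (adjusted p = 0.00429), while Gbp2, lower at both doses with medians of 798, 677 and 451 CPM in control, LCA10 and LCA50 libraries, had 0.14 ± 0.08 and was not called (adjusted p = 0.77). Igtp, the most abundant of the family, had 0.14 ± 0.04 (adjusted p = 0.18).

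Of 12 brakes on the pathway, 1 was called higher, where 0.764% of all genes were. It was Usp18, the protease that removes Isg15 and also blocks Ifnar2 signalling. Usp18 held 85.9, 83.2 and 74.0 CPM in KO control, 146, 168 and 116 CPM in KO LCA10, and 42.9, 69.7 and 76.2 CPM in KO LCA50 libraries. In WT cells Usp18 held 57.8, 81.1 and 57.4 CPM in control, 87.4, 235 and 119 CPM in LCA10, and 55.6, 53.4 and 41.8 CPM in LCA50 libraries. All LCA10 libraries were above the other 12, and the value was 1.18 ± 0.19 (adjusted p = 0.0089). The call was lost with the receptor background as a covariate (1.08, adjusted p = 0.0731). Of 20 genes of MHC class I presentation and the immunoproteasome, 1 was called higher, where 0.764% of all genes were. It was the nonclassical H2-T23 (0.22 ± 0.05, adjusted p = 0.0147). Its call was lost without KO LCA10 replicate 1 or 2 or WT LCA10 replicate 2 or 3 (highest adjusted p = 0.135). The peptide transporter Tap1 had 0.07 ± 0.04 (adjusted p = 0.77).

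Among genes called higher outside these lists were 2 chemokines, though the lists need not hold every gene that interferon induces. Ccl5, which draws T cells and other leukocytes, held a median of 11.5 CPM (8.99 to 19) in control, 23.7 CPM (16.4 to 32.4) in LCA10 and 13.0 CPM (8.58 to 23) in LCA50 libraries, a middle dose value of 0.88 ± 0.15 (adjusted p = 0.000809). The doses of Ccl5 overlapped, and its peak test did not pass (adjusted p = 0.0636). Cxcl10, the ligand of Cxcr3, held a median of 8.90 CPM (4.65 to 11.5) in control, 22.5 CPM (13.0 to 43.0) in LCA10 and 15.3 CPM (9.44 to 26.9) in LCA50 libraries. Cxcl10 in LCA10 was above all control libraries and overlapped LCA50. Its call (1.08 ± 0.21, adjusted p = 0.0119) was lost without KO LCA10 replicate 1 or 2 (adjusted p = 0.053 and 0.0627). Amica1, now named Jaml, an adhesion molecule of leukocytes, had 0.45 ± 0.07 (adjusted p = 5.65e-05), Trafd1, a damper of innate signalling, 0.39 ± 0.06 (adjusted p = 0.000195) and Lgals3bp, a secreted galectin ligand, 0.34 ± 0.05 (adjusted p = 0.00025). The ISRE core was found in the promoters of Cxcl10 and Amica1, and no match was found for Ccl5, Trafd1 or Lgals3bp.

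Both guides gave the bend. The contrast within each guide came from the same fit of all 18 libraries, with a shared estimate of the spread. KO cells had 30 genes called higher and 0 lower (0.257% and 0% of genes tested). WT cells had 37 higher and 3 lower (0.318% and 0.0257%). The 21 genes shared were 70% of the KO calls and 56.8% of the WT calls. KO and WT cells share no library but do share the estimate of the spread, so their calls are not separate analyses. All 30 KO calls had a value above 0 in WT cells and all 37 WT calls had a value above 0 in KO cells, where 51% and 50.1% of all genes did. The WT calls had medians of 0.61 in KO and 0.63 in WT cells on the log2 scale, and the KO calls 0.63 in KO and 0.57 in WT cells. No gene differed between the guides in its middle dose value (edgeR; 538 at an unadjusted p under 0.05; DESeq2 called 0, with 505 at an unadjusted p under 0.05). The smallest p-values belonged to Tysnd1, Tbk1, Mboat2, Daglb and Itga2b, none of which passed (adjusted p = 0.978). Of these, Tbk1, the kinase that activates Irf3, had a value of -0.17 in KO and 0.26 in WT cells. The KO count was 13 without KO LCA10 replicate 1 and 4 without KO LCA10 replicate 2. The WT count of 40 in both directions was 4 without WT LCA10 replicate 2, 13 without WT control replicate 3 or WT LCA50 replicate 3, 23 without WT control replicate 1, 25 without WT LCA50 replicate 2 and 74 without KO LCA50 replicate 1.

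**Figure D4:**
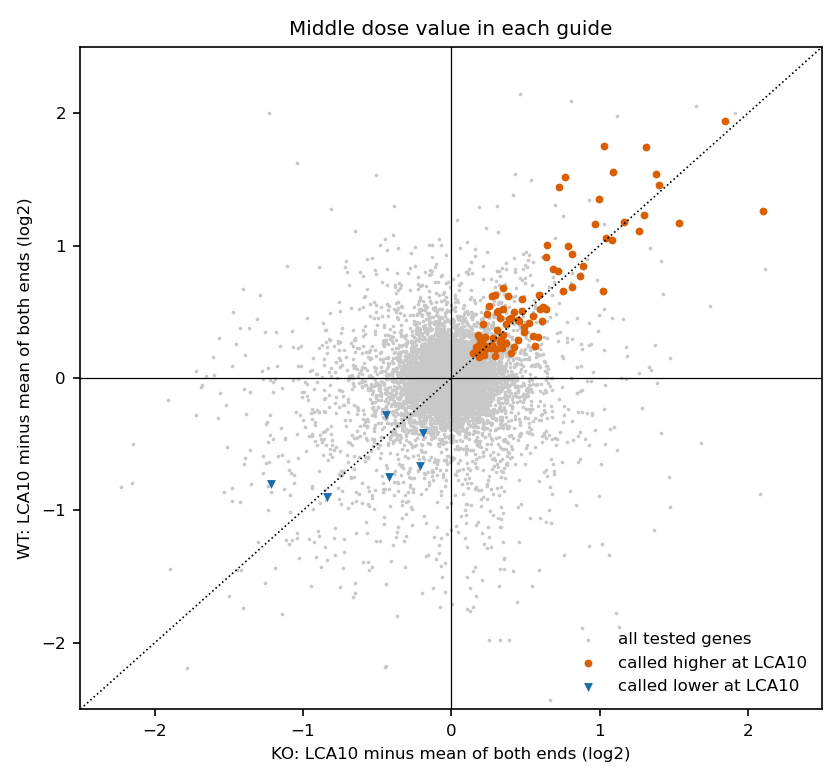
Middle dose value (LCA10 minus the mean of control and LCA50, log2) of each tested gene in KO cells (x axis) and WT cells (y axis), with genes called higher (orange) and lower (blue triangles) in the average; the dotted line marks equal values. The called genes lie near the line on one side of 0 in both guides, as the average over guides favours; 10 genes lie outside the axis limits of 2.5.

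Few genes were low at 10 µM. P2rx4, an ATP-gated ion channel, held 9.48, 8.11 and 12.2 CPM in KO control, 3.13, 3.17 and 5.30 CPM in KO LCA10, and 5.48, 5.15 and 4.12 CPM in KO LCA50 libraries. In WT cells P2rx4 held 11.8, 10.6 and 8.29 CPM in control, 3.48, 4.24 and 4.49 CPM in LCA10, and 6.22, 5.62 and 5.19 CPM in LCA50 libraries. It was thus lower at both doses than without LCA, and WT LCA10 also lay below WT LCA50, with a middle dose value of -0.87 ± 0.19 (adjusted p = 0.0131). The call was lost without KO LCA10 replicate 1 or 2 or WT LCA10 replicate 1 (highest adjusted p = 0.0715).

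Igfbp4, a binding protein of insulin-like growth factors that marks naive T cells, had medians of 160.0 CPM (148 to 190.0) in control, 129 CPM (120.0 to 145) in LCA10 and 164 CPM (118 to 173) in LCA50 libraries. LCA10 was below all control libraries and overlapped LCA50 in KO LCA50 replicate 3, and its value was -0.30 ± 0.06 (adjusted p = 0.0065). Ndrg1, a stress-responsive gene tied to T cell anergy, had -0.36 ± 0.08 (adjusted p = 0.0201), lost without KO LCA10 replicate 3 or WT LCA10 replicate 1 or 2 (highest adjusted p = 0.0948). Ralgps2, an activator of Ral GTPases, had -0.44 ± 0.11 (adjusted p = 0.0325), lost in 10 of 18 cases of leaving out 1 library (highest adjusted p = 0.142). D630045J12Rik, named after its value was seen, had -0.58 ± 0.15 (adjusted p = 0.0481), lost in 14 of 18 such cases (highest adjusted p = 0.245). None of these 5 passed the stricter test of a dip.

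Hic1, a transcriptional repressor that retinoic acid induces in T cells, was called lower although it did not dip. It held 19.6, 10.2 and 15.2 CPM in KO control, 2.68, 1.27 and 3.22 CPM in KO LCA10, and 2.15, 3.17 and 0.982 CPM in KO LCA50 libraries. In WT cells Hic1 held 23.1, 10.6 and 22.5 CPM in control, 4.64, 3.63 and 4.88 CPM in LCA10, and 3.22, 3.82 and 2.26 CPM in LCA50 libraries. The LCA10 value of Hic1 was -2.35 against control on the log2 scale (adjusted p = 1.95e-07). Its means were slightly lower again at 50 µM in both guides, by an amount that did not pass (LCA10 minus LCA50 0.34 ± 0.31, adjusted p = 0.61). Its middle dose call (-1.01 ± 0.25, adjusted p = 0.039) was lost in 12 of 18 cases of leaving out 1 library (highest adjusted p = 0.218). The next lowest p-values below both ends belonged to Npas2, Gcnt2, Lrrc32, Slc25a37, Pom121 and Ndst1, with values from -0.77 to -0.20 and adjusted p from 0.0842 to 0.0951, and none was called. The count of 6 genes called lower was 2 without KO LCA10 replicate 1 or 2 or WT LCA10 replicate 1, 3 without WT control replicate 3 and 11 without KO LCA10 replicate 3.

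Outside the interferon lists few genes departed at the middle dose from the mean of both ends. Those lists held 61 of the 89 genes called higher. Of 25 other lists of function, only Ccl5 among effector genes was called higher, and only Igfbp4 among naive and memory genes and Ndrg1 among hypoxia genes were called lower. Over all genes tested, 0.764% were called higher and 0.0515% lower. The 50 ATF4 targets, genes of the amino acid and stress response, had a median of -0.12, with 3 members above 0 and 45 between the ends. Of these 50, 42 were called higher in LCA50 than in control and 36 lower in LCA10 than in LCA50. The shares over all genes were 7.86% and 2.26%. The 24 cholesterol synthesis genes had a median of 0.13, with 23 members above 0 and 22 between the ends. Of these 24, 18 were called lower in LCA50 than in control and 9 higher in LCA10 than in LCA50. The shares over all genes were 8.66% and 3.47%. Of 11651 genes tested, 6004 were above 0 and 5943 between the ends. The most abundant member of each list without a call, marker lists included, made 27 genes with values from -0.37 ± 0.69 (Pf4) to 0.24 ± 0.08 (Abcb1b), none of which passed.

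**Figure D5:**
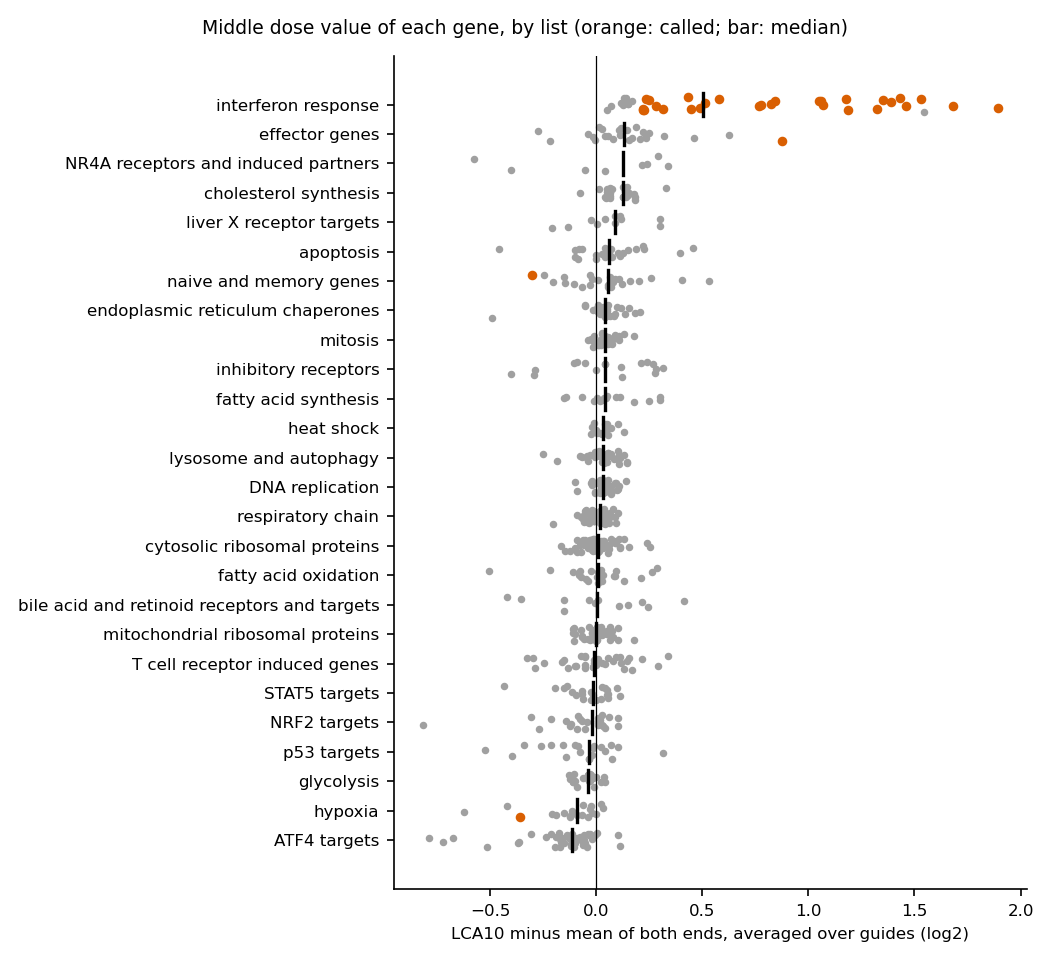
Middle dose value (log2) of each tested gene in 26 lists of function, ordered by the list's median (black bar), with called genes in orange. The interferon response list stands alone with a median of 0.50 and 29 of 40 members called, while the medians of the other 25 lie between -0.12 and 0.13. All 26 lists were chosen with earlier results of these data known.

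In these bulk libraries a change in the RNA per cell cannot be told apart from a change in the share of responding cells. With the receptor background as a covariate, the genes called higher numbered 58, the interferon response members among them 19, the peak genes 9 and the WT calls 13. The middle dose calls of the 15 peak genes held under that covariate, while those of Usp18, Ifit1, Ifit3, Mx1, Irf9, Iigp1, Irgm2, Mndal, H2-T23, P2rx4, Ralgps2, Ndrg1 and D630045J12Rik were lost. The calls of the 15 also held without the libraries of highest and lowest interferon level, a setting chosen after seeing the data, in which the WT count was 19.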

How the data were processed

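RNA was measured by ultra-low input RNA sequencing in 18 libraries. The deposited table holds raw counts per gene symbol as the authors made it, with no normalization. Per the submitters' processing notes, STAR, HOMER and DESeq2 and the builds GRCm38 and mm10 were used, with no versions; the sources used here give neither the role of each nor the counting rule or strandedness. The members and gene lists were chosen with earlier results of these data known.

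Counts were filtered by group with filterByExpr, scaled by TMM and fitted in edgeR 4.0.16 (R 4.3.3) with 6 group means and a robust quasi-likelihood fit (common dispersion 0.00968, median SE of the contrast 0.0944). P-values were adjusted by Benjamini-Hochberg over 11651 genes and called under 0.05. The peak and dip test kept the larger p of both comparisons. CPM used TMM-scaled library sizes. Alternatives used DESeq2 1.42.0 and limma 3.58.1, other filters, scaling, a block, a covariate and omitted libraries. The code was tested on simulated data.

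Named genes were Nr4a1, peak and dip genes, the 12 highest and lowest called genes of peak or dip shape and 5 of the others each way with a mean CPM of at least 5, where under 10 were called the smallest p of that direction as values, up to 3 called members of each list or else its most abundant, and the 5 smallest p between guides. Further interferon genes and 9 lists by role were chosen after values were seen. Promoters are from RefSeq's GRCm38.p6 table, and 23828 of 24537 symbols matched GENCODE vM21. Replicates differed by 2.42 to 8.29 times the squared counting error, so none was counted as a copy. Some items are not reported here.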

Additional observations from a re-analysis of the deposited data

How the results depend on the processing

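Of 56 named genes with a call, 39 kept it in all alternatives, and no called gene changed direction. Usp18 lost its call only with the background covariate. The count of peak genes was 31 with DESeq2, 38 without a filter, 9 with the background covariate, 27 without the 2 LCA50 libraries of highest background and 28 with limma-voom, with 15, 15, 9, 15 and 15 of the 15 genes among them. Genes called lower numbered 14 without a filter, 2 with the covariate and 11 with limma-voom, and genes called higher 58 with the covariate, when 19 interferon response members were called. Without a filter 1 gene differed between guides, and 59 genes were called in KO and 70 in WT cells. WT calls were 13 with the covariate, 81 with limma-voom and 19 without the libraries of lowest and highest interferon level. Leaving out 1 library gave 54 to 104 genes higher, 2 to 11 lower, 5 to 26 peaks, 0 dips, 0 differences between guides, 4 to 36 calls in KO, 4 to 74 in WT and 20 to 30 interferon members. Nr4a1, never called, turned to 0.0733 with the covariate and 0.0869 with limma-voom, and ranged from -0.254 to 0.0585 when 1 library was left out. The cause was not tested.

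Replicate numbers did not pair the libraries: no correlation of same-numbered deviations exceeded 0.1 in 45 (-0.218 to 0.088), and 32 of 90 comparisons matched best with their own number. With a replicate block 24 genes peaked, 15 of them the same genes. The number of libraries, 3 per group, limits the precision of each value.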
